A study of Arabidopsis thaliana with 9 samples.

Results

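LHCB3 and the minor antenna genes LHCB4.1, LHCB4.2, LHCB4.3, LHCB5, LHCB6 and LHCB7 encode chlorophyll-binding proteins of photosystem II. The 7 genes were picked by their locus identifiers from the 26984 named genes of each library. This choice was made with earlier results of these data known. All 7 passed the minimum for testing. RNA sequencing measured transcripts in whole Arabidopsis thaliana seedlings that were 7 days old, raised in short days and collected at ZT20, which is 20 hours after lights-on and lies in the dark period. There were 3 libraries of the cop1-6 mutant, 3 of the cor27cor28 double mutant and 3 of the wild type, given as Col_0, the reference strain. All groups shared the age, the day length and the harvest time, and no treatment is given. COP1 encodes the substrate-recognising part of a ubiquitin ligase that marks light-signalling factors for destruction in darkness, and cop1-6 is known as a weak, viable allele. COR27 and COR28 encode small nuclear proteins under control of cold and the circadian clock. The sources used here give neither the alleles joined in the double mutant nor whether replicates came from separate batches of plants, so p-values measure the spread between these samples, which may be technical.

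The antenna of photosystem II collects light and passes the excitation energy to the reaction centre. Its outer part consists of trimers of LHCB1, LHCB2 and LHCB3, and its inner part of single proteins that lie between the trimers and the core, named CP29 (the LHCB4 proteins), CP26 (LHCB5) and CP24 (LHCB6). LHCB3 sits in the moderately bound trimers, which CP24 and CP29 help to hold in place. LHCB4.1 and LHCB4.2 are the usual CP29 genes of Arabidopsis, LHCB4.3 is a divergent CP29 form known for accumulating under strong light, and LHCB7 is a distant relative with low transcript levels. All are encoded in the nucleus and made in green tissue, where their transcription responds to light and the clock.

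Values are FPKM as the authors deposited them, fragments scaled to transcript length and library size, so that levels of different genes can be compared. The sum over named genes was 515929 to 532655 FPKM in cop1-6 libraries, 548055 to 562621 in libraries labelled cor27cor28 and 584878 to 612462 in wild-type libraries. No counting interval was computed, because the sources used here do not give read numbers. The cop1-6 label was not checked by its own gene, since COP1 was not analysed here. COR27 was listed at 47.9 to 50.1 FPKM in the libraries labelled cor27cor28 and at 12.5 to 17.4 FPKM in wild-type libraries, and COR28 at 1.48 to 2.71 FPKM in the libraries labelled cor27cor28 and at 1.92 to 3.08 FPKM in wild-type libraries. These levels do not show the loss of either transcript. They do not bear the label out, so the group is called the libraries labelled cor27cor28 throughout, and every direction given for it rests on that label.

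Seedlings are a mixture of organs, and in such samples fewer cells of a type and less RNA per cell cannot be told apart. The 5 green tissue markers (RBCS1A, RCA, CA1, GAPA and PRK) summed to 20867 to 23677 FPKM in cop1-6 libraries, 13675 to 15316 FPKM in libraries labelled cor27cor28 and 20704 to 21795 FPKM in wild-type libraries, so green tissue was present in every group. The 9 root markers summed to 0.621 to 1.51 FPKM in cop1-6 libraries, 20.3 to 28.9 FPKM in libraries labelled cor27cor28 and 29.8 to 37.9 FPKM in wild type, and CASP5 and EXPA7 were listed at 0 in every cop1-6 library. The 9 seed markers summed to 15.5 to 38.3 FPKM in cop1-6 libraries, 0.581 to 5.14 FPKM in libraries labelled cor27cor28 and 0.495 to 5.31 FPKM in wild type. SESA1 and SESA2 were listed at 0 in every library labelled cor27cor28 and every wild-type library, as were CRU2 and CRU3 in every wild-type library. The part of these shifts in tissue markers in the antenna results was not tested.

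The 7 genes fell into an abundant and a scarce set. LHCB5 and LHCB4.1 stood highest in every group, followed by LHCB6, while LHCB3 and LHCB4.2 came next. In wild-type libraries LHCB5 ranked between 14 and 19 from the top of all genes in a library and LHCB3 between 79 and 99. The ranges of LHCB5 and LHCB4.1 overlapped in the libraries labelled cor27cor28 and in wild type, those of LHCB3 and LHCB4.2 overlapped in cop1-6, and those of LHCB6 and LHCB4.2 overlapped in wild type. LHCB4.2 stood above LHCB3 in every library labelled cor27cor28 and every wild-type library, and below it in every cop1-6 library. LHCB4.3 and LHCB7 stayed far below these 5 genes in every library, with LHCB4.3 above LHCB7 in cop1-6, below it in wild type, and overlapping it in the libraries labelled cor27cor28. Together the 7 genes made up 0.863% ± 0.036 of the summed FPKM in cop1-6 libraries, 0.582% ± 0.019 in libraries labelled cor27cor28 and 1.05% ± 0.071 in wild type (SD, n = 3 each).

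**Figure D1:**
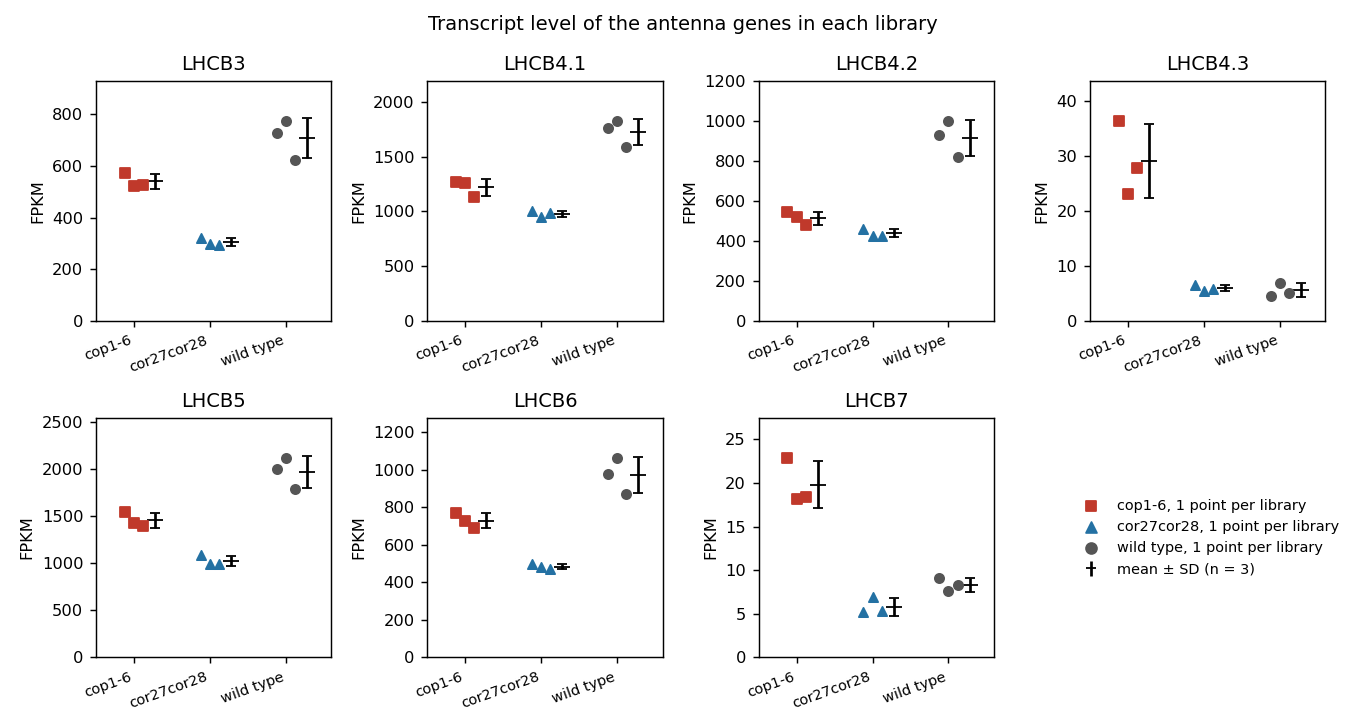
FPKM (linear axis from 0) of each antenna gene in each library, with 1 point per library and the mean ± SD of 3 libraries beside the points. LHCB3, LHCB4.1, LHCB4.2, LHCB5 and LHCB6 are highest in wild type and lowest in the libraries labelled cor27cor28, while LHCB4.3 (23.1 to 36.3 FPKM) and LHCB7 (18.1 to 22.9 FPKM) are highest in cop1-6.

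LHCB3 (AT5G54270, chr5:22038165-22039568 on the plus strand of TAIR10.1, 3 exons) was lowest in the libraries labelled cor27cor28. LHCB3 had 574, 520.3 and 525 FPKM in the cop1-6 libraries, 321, 298 and 295 FPKM in the libraries labelled cor27cor28, and 729, 774 and 621 FPKM in the wild-type libraries. The 3 groups did not overlap. Its mean was 540.0 ± 29.9 FPKM in cop1-6, 304.5 ± 14.2 FPKM in the libraries labelled cor27cor28 and 708 ± 78.5 FPKM in wild type (SD, n = 3 each). A limma model over all 9 libraries with Benjamini-Hochberg adjustment over 17075 genes gave a log2 fold change of (FPKM + 1) of -0.39 ± 0.09 (SE) for cop1-6 against wild type (adjusted p = 0.00337). For libraries labelled cor27cor28 set against wild type it gave -1.21 ± 0.09 (adjusted p = 2.41e-05), which was the most negative of the 7 genes in that comparison. LHCB3 overlaps the antisense gene ATM2 (6.89 to 10.2 FPKM over all libraries) by 186 bases, and the sources used here do not say whether counting used strand, so reads of that overlap cannot be assigned.

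LHCB4.1, LHCB4.2 and LHCB4.3 encode alternative forms of the same antenna protein, CP29, so they are described together. LHCB4.1 (AT5G01530) lies at chr5:208866-210548, LHCB4.2 (AT3G08940) at chr3:2717557-2718923 and LHCB4.3 (AT2G40100) at chr2:16745628-16747424, each on the plus strand of TAIR10.1 with 2 exons. Their coding sequences are 873, 864 and 831 bases long. LHCB4.1 and LHCB4.2 share 81.9% of aligned coding bases, whereas LHCB4.3 shares 71.8% with LHCB4.1 and 72.9% with LHCB4.2. No stretch of 50 bases of any of the 3 transcripts occurs in another gene, so reads of that length or longer can be told apart among them. LHCB4.2 overlaps the antisense gene AT3G08943 (11.2 to 20.02 FPKM) by 44 bases.

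The bases upstream of the 3 CP29 genes are shown because these paralogs differed in their response. Whether the short motifs they hold bear on that response was not tested. The sequences are from the TAIR10.1 genome of RefSeq, reach from the base before the annotated gene start back to at most 250 bases, and stop at a neighbouring gene, which leaves 190 bases for LHCB4.2. Capitals mark matches on either strand to CACGTG (the G-box, the preferred site of HY5 and PIF factors), CCAATC (a motif linked to the GLK regulators of photosynthesis genes; GATTGG is its other strand) and GATAAG (the I-box core).
LHCB4.1, chr5:208616-208865, plus strand: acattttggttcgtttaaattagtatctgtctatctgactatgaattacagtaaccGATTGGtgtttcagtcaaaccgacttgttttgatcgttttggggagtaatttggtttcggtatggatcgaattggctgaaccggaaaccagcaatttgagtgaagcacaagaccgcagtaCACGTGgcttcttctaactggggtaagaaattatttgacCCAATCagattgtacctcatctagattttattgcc
LHCB4.2, chr3:2717367-2717556, plus strand: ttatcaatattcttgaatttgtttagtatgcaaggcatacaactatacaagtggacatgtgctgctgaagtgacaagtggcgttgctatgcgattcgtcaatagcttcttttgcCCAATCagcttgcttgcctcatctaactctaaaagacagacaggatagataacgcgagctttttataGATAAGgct
LHCB4.3, chr2:16745378-16745627, plus strand: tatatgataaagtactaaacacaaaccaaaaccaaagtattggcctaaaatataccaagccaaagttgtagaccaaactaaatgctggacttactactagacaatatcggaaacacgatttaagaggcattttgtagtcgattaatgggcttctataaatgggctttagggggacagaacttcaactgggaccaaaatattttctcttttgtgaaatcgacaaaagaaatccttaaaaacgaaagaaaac
LHCB4.1 holds the G-box once and CCAATC in both orientations, LHCB4.2 holds CCAATC and GATAAG, and LHCB4.3 holds none of them. In the same orientation CCAATC ends 30 bases before the gene start in LHCB4.1 and 71 bases before it in LHCB4.2. Of 27443 windows of a full 250 bases upstream of annotated nuclear protein-coding genes, 6.49% hold CACGTG, 10.2% CCAATC and 12.3% GATAAG. Among the other members, the windows of LHCB6 and LHCB7 also hold CACGTG, that of LHCB6 holds GATAAG as well, and that of LHCB5 holds none. The wider core ACGT, which lies inside CACGTG and occurs in 44.1% of windows, was in those of LHCB3, LHCB4.1, LHCB6 and LHCB7. Windows of a full 250 bases can run into a neighbouring gene, and both ACGT matches of LHCB3 lie in one, beyond the 112 bases free before its start, whereas the matches of LHCB6 and LHCB7 lie in their free bases. The evening element AAAATATCT and the CCA1-binding site AAAAATCT, both read by clock proteins, occur in 2.36% and 6.69% of windows and in none of the 7 members. These are matches of letters and were not tested as binding sites.

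LHCB4.1 had 1268, 1261 and 1128 FPKM in the cop1-6 libraries, 1003, 949 and 988 FPKM in the libraries labelled cor27cor28, and 1763, 1827 and 1589.6 FPKM in the wild-type libraries. Every wild-type library lay above every cop1-6 library, and these lay above every library labelled cor27cor28. The log2 fold change was -0.50 ± 0.08 (SE) for cop1-6 against wild type (limma adjusted p = 0.00036) and -0.81 ± 0.08 for libraries labelled cor27cor28 set against wild type (adjusted p = 0.000152).

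LHCB4.2 had 544, 518 and 480.0 FPKM in the cop1-6 libraries, 462, 426 and 427 FPKM in the libraries labelled cor27cor28, and 929.5, 1002 and 822 FPKM in the wild-type libraries. The order of the groups was that of LHCB4.1, and in LHCB4.2 as in LHCB4.1 the mutants lay closer to each other than to wild type. Against wild type the log2 fold change was -0.83 ± 0.09 (SE) for cop1-6 (limma adjusted p = 9.83e-06), the most negative of the 7 genes in that comparison. It was -1.06 ± 0.09 for the libraries labelled cor27cor28 (adjusted p = 5.49e-05).

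LHCB4.3 behaved unlike its paralogs in cop1-6. LHCB4.3 had 36.3, 23.1 and 27.8 FPKM in the cop1-6 libraries, 6.56, 5.45 and 5.73 FPKM in the libraries labelled cor27cor28, and 4.51, 6.92 and 5.12 FPKM in the wild-type libraries. The cop1-6 libraries all lay above the other 6, which overlapped between their groups. The mean was 5.27-fold higher in cop1-6 than in wild type (29.1 ± 6.69 against 5.52 ± 1.249 FPKM, SD, n = 3 each) and the log2 fold change of (FPKM + 1) was 2.2 ± 0.17 (SE, limma adjusted p = 6.08e-07). The libraries labelled cor27cor28 had a log2 fold change of 0.10 ± 0.17 against wild type (limma adjusted p = 0.694, 95% interval -0.26 to 0.46), so a difference was not detected and the interval still holds shifts of either sign. LHCB4.3 ranked between 2515 and 3637 from the top in cop1-6 libraries, between 10578 and 12021 in libraries labelled cor27cor28 and between 9961 and 12333 in wild-type libraries.

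Of the summed FPKM of the 3 CP29 genes, LHCB4.3 made up 1.65% ± 0.344 in cop1-6, 0.415% ± 0.027 in the libraries labelled cor27cor28 and 0.208% ± 0.038 in wild type (SD, n = 3 each). LHCB4.2 made up 29.2% ± 0.371 in cop1-6, 30.8% ± 0.675 in the libraries labelled cor27cor28 and 34.6% ± 0.665 in wild type. LHCB4.1 made up 69.2% ± 0.709 in cop1-6, 68.8% ± 0.695 in the libraries labelled cor27cor28 and 65.2% ± 0.687 in wild type. LHCB4.3 thus remained a small share of CP29 transcript in every group, including cop1-6.

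LHCB5 (AT4G10340, chr4:6408007-6409849, plus strand, 6 exons) encodes CP26, which links a trimer to the core on the side opposite CP29 and CP24. It had 1543, 1429 and 1396 FPKM in the cop1-6 libraries, 1085, 996 and 989.9 FPKM in the libraries labelled cor27cor28, and 2005, 2124 and 1786 FPKM in the wild-type libraries. The groups did not overlap. The log2 fold change against wild type was -0.43 ± 0.09 (SE) for cop1-6 (limma adjusted p = 0.00143) and -0.94 ± 0.09 for the libraries labelled cor27cor28 (adjusted p = 0.000116).

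LHCB6 (AT1G15820, chr1:5446462-5447880, minus strand, 2 exons) encodes CP24, which binds next to CP29. It had 770.4, 728 and 691 FPKM in the cop1-6 libraries, 499, 482 and 472 FPKM in the libraries labelled cor27cor28, and 981, 1065 and 874 FPKM in the wild-type libraries, again with no overlap. The log2 fold change against wild type was -0.41 ± 0.08 (SE) for cop1-6 (limma adjusted p = 0.00161) and -1.0 ± 0.08 for the libraries labelled cor27cor28 (adjusted p = 6.49e-05). The antisense gene AT1G15810 overlaps LHCB6 by 103 bases and had 12.2 to 22.8 FPKM. A long non-coding RNA gene annotated on the other strand overlaps it by 358 bases and was not analysed here.

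LHCB7 (AT1G76570, chr1:28728998-28730851, plus strand, 6 exons) has the longest coding sequence of the 7, with 984 bases. It had 22.9, 18.1 and 18.4 FPKM in the cop1-6 libraries, 5.17, 6.93 and 5.27 FPKM in the libraries labelled cor27cor28, and 9.15, 7.56 and 8.33 FPKM in the wild-type libraries. All 3 groups were apart, with cop1-6 highest and the libraries labelled cor27cor28 lowest, although the lowest wild-type library (7.56 FPKM) lay close to the highest library labelled cor27cor28 (6.93 FPKM). The mean was 2.37-fold higher in cop1-6 than in wild type (19.8 ± 2.67 against 8.35 ± 0.795 FPKM, SD, n = 3 each) and the log2 fold change was 1.15 ± 0.13 (SE, limma adjusted p = 1.57e-05). Against wild type the libraries labelled cor27cor28 had a log2 fold change of -0.47 ± 0.13 (limma adjusted p = 0.0231), and this call was lost without wild-type replicate 1 or 3 (adjusted p = 0.0802 and 0.0588) and without replicate 1 or 3 labelled cor27cor28 (adjusted p = 0.0606 and 0.0872).

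Counted over the 7 genes, 2 rose and 5 fell in cop1-6 against wild type. Over all 17075 tested genes 49.5% were called in that comparison, 10.9% higher and 38.6% lower, with a median log2 fold change of -0.21. The falls of the 5 abundant genes therefore stood in a library-wide shift, and they depended on how libraries were scaled. When libraries were scaled by the median of ratios, which puts the median of all genes at 0.01, LHCB4.2 alone was called lower (-0.57 ± 0.11 SE, limma adjusted p = 0.00158). LHCB3, LHCB4.1, LHCB5 and LHCB6 then had log2 fold changes of -0.12, -0.24, -0.17 and -0.15 (limma adjusted p = 0.382, 0.105, 0.259 and 0.284). With FPKM sums set equal, 4 of the 5 were called lower and LHCB3 was not (-0.19, limma adjusted p = 0.0638). The higher levels of LHCB4.3 and LHCB7 in cop1-6 passed the test under each of the 3 scalings, with log2 fold changes of 2.45 and 1.4 under median-of-ratios scaling. Genes lower in cop1-6 made up 77.9% of all calls on the deposited scale, 47.7% under median-of-ratios scaling and 57.4% at equal sums.

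In libraries labelled cor27cor28, set against wild type, 0 of the 7 genes rose and 6 fell, and LHCB4.3 did not pass the test. The background in this comparison was 21.9% of tested genes called, 14.6% higher and 7.29% lower, with a median log2 fold change of 0.10. The same 6 genes were called lower under median-of-ratios scaling and at equal sums, where LHCB3 had log2 fold changes of -1.35 and -1.11. Lower genes made up 33.3% of all calls on the deposited scale, 62.8% under median-of-ratios scaling and 16.3% at equal sums. The green tissue markers moved in the same direction, with 5 of 5 called lower (median log2 fold change -0.55), and their part in the falls of the antenna genes was not tested.

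The direct comparison of both mutants separated all 7 genes in 1 direction. Each was higher in cop1-6 than in the libraries labelled cor27cor28, against a background of 65.8% of tested genes called, 9.19% higher and 56.6% lower, and a median log2 fold change of -0.36. LHCB4.3 differed most, with 4.92 times the mean FPKM in cop1-6 (log2 fold change 2.1 ± 0.17 SE, limma adjusted p = 1.12e-06). LHCB7 followed with 3.42 times the mean (1.62 ± 0.13 SE, limma adjusted p = 1.23e-06), then LHCB3 with 1.77 times (0.82 ± 0.09 SE, adjusted p = 1.5e-05). LHCB6 had a log2 fold change of 0.59 and LHCB5 of 0.51 (limma adjusted p = 0.000123 and 0.000452). The CP29 genes LHCB4.1 and LHCB4.2 had the smallest differences, 0.31 ± 0.08 and 0.23 ± 0.09 (SE, limma adjusted p = 0.00651 and 0.0355). The call for LHCB4.2 was lost without cop1-6 replicate 1 or 2 (adjusted p = 0.115 and 0.0674), without replicate 2 or 3 labelled cor27cor28 (adjusted p = 0.109 and 0.0994) and with no minimum on low values (adjusted p = 0.0638). All 7 were called higher under the other scalings too, while genes lower in cop1-6 made up 86.0% of all calls on the deposited scale, 42.1% under median-of-ratios scaling and 80.5% at equal sums. The green tissue markers moved in the same direction, with 5 of 5 called higher in cop1-6 (median log2 fold change 0.87, against 0.59 for the 7 members). Their part in the differences of the antenna genes was not tested.

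**Figure D2:**
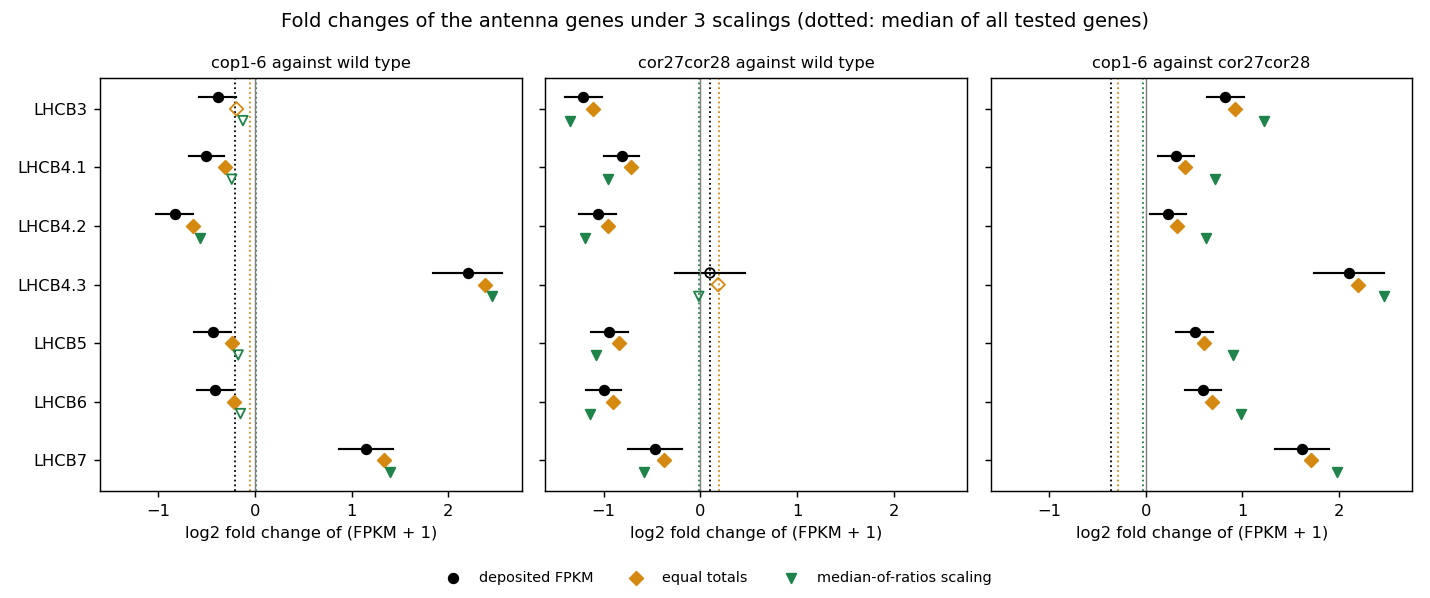
Log2 fold change of (FPKM + 1) of each antenna gene in each comparison, with the deposited FPKM (circles, bars are 95% intervals of the limma model), at equal sums (diamonds) and under median-of-ratios scaling (triangles); filled symbols have an adjusted p under 0.05 and dotted lines mark the median of all tested genes. LHCB4.3 and LHCB7 lie right of 0 in cop1-6 against wild type under every scaling, whereas LHCB3, LHCB4.1, LHCB5 and LHCB6 are open triangles there.

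Ratios of 2 genes within a library do not depend on how libraries are scaled against each other, apart from the added 1 FPKM. Of 8 such ratios, all differed among the 3 groups in an exact permutation test over every assignment of the 9 libraries to 3 groups of 3 (Benjamini-Hochberg adjusted p over the 8 ratios between 0.00571 and 0.0107). The smallest p the 9 libraries allow is 0.00357, and 3 libraries against 3 cannot go below 0.1. LHCB4.3 stood at 2.39% of LHCB4.1 in cop1-6, 0.603% in the libraries labelled cor27cor28 and 0.319% in wild type, and the 3 groups did not overlap (adjusted p = 0.00571, exact permutation test). LHCB7 stood at 1.36% of LHCB5 in cop1-6, 0.568% in the libraries labelled cor27cor28 and 0.426% in wild type (adjusted p = 0.00571, exact permutation test). For this ratio the highest wild-type library (0.467%) lay close to the lowest library labelled cor27cor28 (0.477%). In the libraries labelled cor27cor28 both ratios were above wild type while their denominators LHCB4.1 and LHCB5 fell (log2 fold changes -0.81 and -0.94). There LHCB4.3 itself was not called (0.10) and LHCB7 was lower than in wild type (-0.47).

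LHCB4.2 stood at 42.2% ± 0.963 of LHCB4.1 in cop1-6, 44.7% ± 1.43 in the libraries labelled cor27cor28 and 53.1% ± 1.58 in wild type (SD, n = 3 each). So within CP29 the balance lay further towards LHCB4.1 in each mutant library than in any wild-type library. LHCB4.2 relative to LHCB5 showed the same order, with 35.3% in cop1-6, 42.8% in the libraries labelled cor27cor28 and 46.5% in wild type. LHCB3 stood at 37.1% ± 0.616 of LHCB5 in cop1-6, 29.8% ± 0.161 in the libraries labelled cor27cor28 and 35.9% ± 0.924 in wild type. Here the libraries labelled cor27cor28 lay apart, while cop1-6 and wild-type libraries overlapped (exact 2-sided permutation p = 0.2, 3 against 3). The cop1-6 and wild-type libraries also overlapped in LHCB4.1 over LHCB5 and in LHCB6 over LHCB5 (exact 2-sided permutation p = 0.3 for each, 3 against 3). LHCB4.1 relative to LHCB5 was 83.8% ± 3.97 in cop1-6, 95.9% ± 3.67 in the libraries labelled cor27cor28 and 87.6% ± 1.51 in wild type. LHCB6 relative to LHCB5 varied least, at 50.1% ± 0.723 in cop1-6, 47.4% ± 1.24 in the libraries labelled cor27cor28 and 49.3% ± 0.719 in wild type. The adjusted p of 0.0107 for LHCB6 over LHCB5 (exact permutation test) moved to 0.0607 without cop1-6 replicate 2 and to 0.0536 without replicate 1 labelled cor27cor28.

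**Figure D3:**
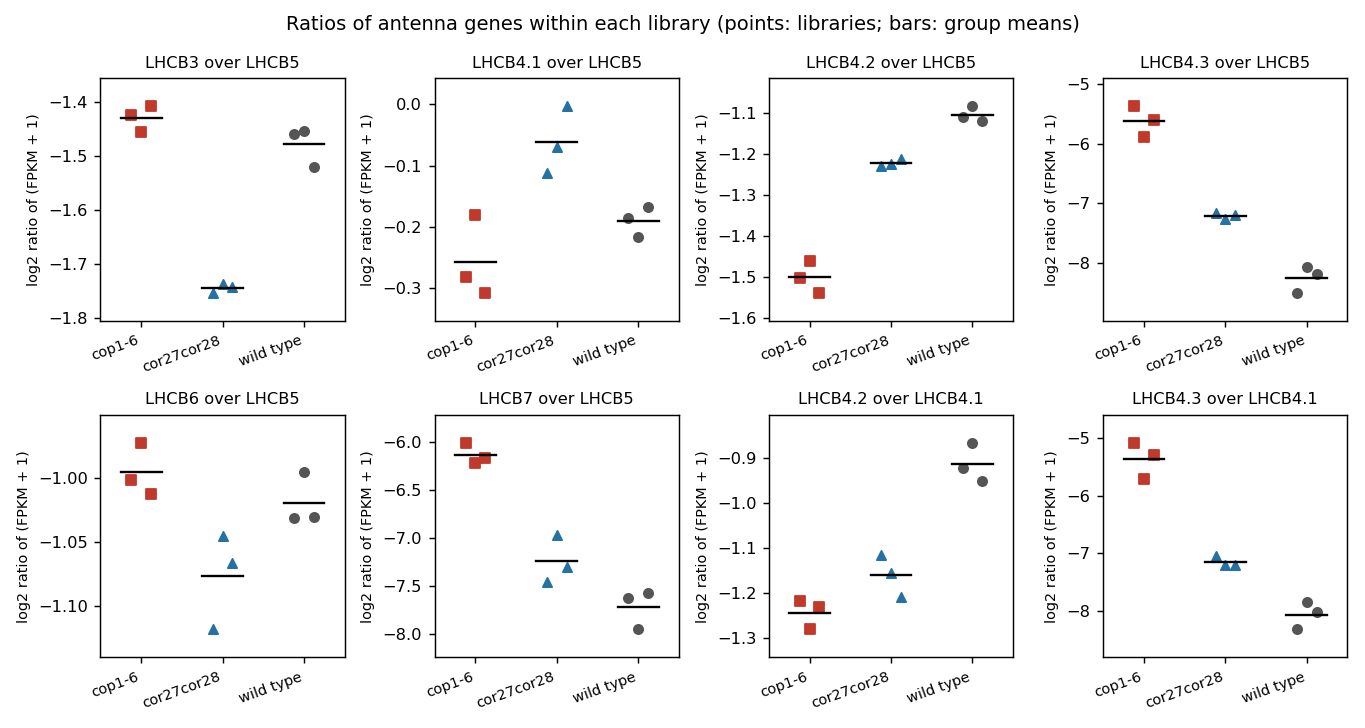
Log2 ratio of (FPKM + 1) of pairs of antenna genes in each library (points) with the group mean (bar); the vertical axes do not start at 0 and differ between panels. LHCB4.2 over LHCB4.1 is highest in wild type, LHCB3 over LHCB5 is lowest in the libraries labelled cor27cor28, and LHCB4.3 over LHCB4.1 is highest in cop1-6.

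The genes whose levels ran most like those of each member, by Pearson's r of log2(FPKM + 1) over the 9 libraries, fell into the same division. These r values come from libraries in 3 groups that share their scaling, and they describe likeness only. LHCB3 ran with LHB1B2 (an LHCB1 gene, r = 0.990) and LHCA3 (an antenna gene of photosystem I, r = 0.987). LHCB4.1 ran with PSAE-1 and PSBTN (both r = 0.986), LHCB4.2 with LHCA2 (r = 0.987) and PSBTN (r = 0.978), LHCB5 with PSBO1 (r = 0.991) and LHCA3 (r = 0.988), and LHCB6 with PSBO1 (r = 0.987) and PSBQA (r = 0.985). All of these encode photosystem subunits or antenna proteins. LHCB4.3 ran instead with PAL2 (r = 0.998), a phenylalanine ammonia-lyase gene at the entry of phenylpropanoid synthesis, and with TT4 (r = 0.993), the chalcone synthase gene. PAL2 averaged 93.5 ± 8.08 FPKM in cop1-6, 43.8 ± 1.95 FPKM in the libraries labelled cor27cor28 and 42.8 ± 3.10 FPKM in wild type (SD, n = 3 each). TT4 averaged 342 ± 57.1 FPKM in cop1-6, 50.9 ± 7.38 FPKM in the libraries labelled cor27cor28 and 38.7 ± 7.01 FPKM in wild type.

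LHCB7 ran with SHM1 (r = 0.995), which encodes a mitochondrial enzyme of photorespiration, and with GUN5 (r = 0.991), a subunit gene of the enzyme that puts magnesium into the precursor of chlorophyll. SHM1 averaged 1001 ± 79.9 FPKM in cop1-6, 595 ± 36.8 FPKM in the libraries labelled cor27cor28 and 677 ± 30.7 FPKM in wild type. GUN5 averaged 588 ± 46.9 FPKM in cop1-6, 276 ± 7.61 FPKM in the libraries labelled cor27cor28 and 357 ± 15.5 FPKM in wild type (SD, n = 3 each). Among the 10 pairs of the 5 abundant members r was 0.869 to 0.997. Between LHCB4.3 or LHCB7 and these 5 it was -0.316 to 0.455, and between LHCB4.3 and LHCB7 it was 0.911.

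Genes that work with the members were followed as lists, described by counts and by the median log2 fold change. The medians of all tested genes to set beside them are -0.21 for cop1-6 against wild type (10.9% called higher, 38.6% lower), 0.10 for libraries labelled cor27cor28 set against wild type (14.6% higher, 7.29% lower) and -0.36 between the mutants (9.19% higher, 56.6% lower). The other antenna genes (14 of photosystem I and of the LHCB1 and LHCB2 trimers) were mixed in cop1-6 against wild type, with 5 higher and 7 lower (median -0.17), and with 7 higher and 4 lower under median-of-ratios scaling. LHCB1.4, a trimer gene, fell in cop1-6 (log2 fold change -2.67 ± 0.09 SE, limma adjusted p = 1.14e-09), and LHCB2.2, another, rose (0.99 ± 0.08, adjusted p = 7.51e-07), with near-identical copies making LHCB1 and LHCB2 values uncertain. In libraries labelled cor27cor28, set against wild type, 0 of these 14 rose and 13 fell (median -1.0), close to the median of the 7 members (-0.94). LHCB2.3 had a log2 fold change of -2.24 and LHCA4 of -1.23 (limma adjusted p = 5.89e-06 and 1.63e-05). Between the mutants 12 of the 14 were higher and 1 lower in cop1-6 (median 0.91, against 0.59 for the 7 members), with log2 fold changes of 3.41 for LHCB2.3 and 1.73 for LHCB2.2 (limma adjusted p = 4.88e-09 and 8.82e-09). The 7 members made up 22.3% ± 1.1 of the FPKM of all 21 antenna genes in cop1-6, 20.9% ± 0.577 in the libraries labelled cor27cor28 and 19.8% ± 0.577 in wild type (SD, n = 3 each).

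Of 14 nuclear genes for other photosystem II subunits, 4 rose and 7 fell in cop1-6 against wild type (median -0.16), and 6 rose and 1 fell under median-of-ratios scaling. PSBS encodes the sensor that switches the antenna to heat dissipation, and PSBQ2 a subunit of the oxygen-evolving side. PSBS rose in cop1-6 (0.77 ± 0.08 SE, limma adjusted p = 1.32e-05) and fell in the libraries labelled cor27cor28 (-0.79 ± 0.08, adjusted p = 0.000157). Its level was 1019 ± 93.2 FPKM in cop1-6, 344 ± 22.9 FPKM in the libraries labelled cor27cor28 and 597 ± 18.1 FPKM in wild type (SD, n = 3 each). PSBQ2 fell in both (-1.01 and -0.85, limma adjusted p = 2.21e-06 and 0.000156). In the libraries labelled cor27cor28, 0 of the 14 rose and 12 fell (median -0.59). Between the mutants 11 were higher in cop1-6 and 0 lower (median 0.41), among them PSBS and the assembly factor gene PSB28 (1.56 and 0.97, limma adjusted p = 4.51e-08 and 6.15e-06).

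Of 5 genes that insert antenna proteins into the thylakoid membrane, 0 rose and 2 fell in cop1-6 against wild type (median -0.15), ALB3 and CPSRP43 (-0.29 and -0.30, limma adjusted p = 0.00514 and 0.00757), but 2 rose and 0 fell under median-of-ratios scaling. In the libraries labelled cor27cor28 ALB3 fell (-0.31, limma adjusted p = 0.011), and CPSRP43 had a log2 fold change of -0.22 that did not pass (adjusted p = 0.0674). There 0 of the 5 rose and 1 fell (median -0.22), against 0 and 3 under median-of-ratios scaling and 1 and 1 at equal sums. Between the mutants 0 of these 5 were called by limma, and 0 had an unadjusted p under 0.05 (median -0.08), and under median-of-ratios scaling 4 were higher in cop1-6. Of 4 kinases and phosphatases of the antenna and core, STN7, which phosphorylates trimer proteins for state transitions, rose in cop1-6 (0.51 ± 0.09 SE, limma adjusted p = 0.00065), and its phosphatase TAP38 fell (-0.33, adjusted p = 0.0123), a call lost under median-of-ratios scaling, where 1 of the 4 was higher and 0 lower (median -0.12 with the deposited values). STN7 had a log2 fold change of 0.09 in the libraries labelled cor27cor28 (limma adjusted p = 0.49), where the core kinase gene STN8 fell (-0.45, adjusted p = 0.00838) as 1 of the 4, with 0 higher (median -0.29) and with 2 lower under median-of-ratios scaling. STN7 and STN8 were both higher in cop1-6 than in the libraries labelled cor27cor28 (0.42 and 0.37, limma adjusted p = 0.00217 and 0.00653), which made 2 of 4 higher and 0 lower (median 0.32), and 3 higher under median-of-ratios scaling.

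The antenna proteins need chlorophyll b and xanthophylls to fold. Of 4 genes that make or remove chlorophyll b, 0 rose and 2 fell in cop1-6 against wild type (median -0.18), HCAR and NOL, which take part in turning chlorophyll b back into chlorophyll a (-0.67 and -0.31, limma adjusted p = 0.000553 and 0.0373), while 1 rose and 1 fell under median-of-ratios scaling. CAO, whose enzyme makes chlorophyll b, had a log2 fold change of 0.01 in cop1-6 (limma adjusted p = 0.92) and fell in the libraries labelled cor27cor28 (-0.36, adjusted p = 0.0257). That made 0 of the 4 higher and 1 lower in the libraries labelled cor27cor28 (median 0.10), but at equal sums the call of CAO was lost and 2 others of the 4 were called higher. Between the mutants CAO was higher in cop1-6 (0.38, limma adjusted p = 0.00706) and HCAR lower (-0.96, adjusted p = 4.01e-05), with 1 of the 4 higher and 2 lower in all (median -0.28), and 1 higher and 1 lower under median-of-ratios scaling and at equal sums. Of 5 xanthophyll enzyme genes, 2 rose and 1 fell in cop1-6 against wild type (median 0.18), and 4 rose and 0 fell under median-of-ratios scaling and at equal sums. In the libraries labelled cor27cor28 0 of the 5 were called by limma, and 1 had an unadjusted p under 0.05 (median 0.03), against 1 lower under median-of-ratios scaling and 1 higher at equal sums. ZEP, the zeaxanthin epoxidase gene, rose in cop1-6 to 157 ± 15.9 FPKM, against 44.4 ± 2.95 FPKM in wild type (SD, n = 3 each; 1.80 ± 0.10 SE, limma adjusted p = 3.82e-08). LUT5, a carotene hydroxylase gene of lutein synthesis, rose as well (0.77 ± 0.09 SE, adjusted p = 1.9e-05). Both were higher in cop1-6 than in the libraries labelled cor27cor28 (1.78 and 0.58, limma adjusted p = 4.75e-08 and 0.000192), and these were 2 of 5 (median 0.15), with 5 of 5 higher under median-of-ratios scaling.

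Among 6 regulators of photosynthesis genes, 3 rose and 2 fell in cop1-6 against wild type (median 0.25). GLK1 and GLK2, which activate antenna genes, fell (-0.31 and -0.40, limma adjusted p = 0.0108 and 0.000722), whereas CGA1, a GATA factor of chloroplast development, rose (1.33 ± 0.12 SE, adjusted p = 2.29e-06). In cop1-6, 4 of the 6 were higher and 0 lower under median-of-ratios scaling, so neither GLK1 nor GLK2 was called lower there. At equal sums 4 were higher and 1 lower, so at most 1 of these 2 falls was called. In the libraries labelled cor27cor28, GLK1 and GLK2 had log2 fold changes of 0.17 and 0.04 (limma adjusted p = 0.182 and 0.751), and CGA1 rose (0.49, adjusted p = 0.0117) as the 1 called gene of the 6 (median 0.13). Any link between GLK levels and the falls of 6 antenna members there was not tested. Between the mutants CGA1 was higher in cop1-6 (0.83, limma adjusted p = 0.000102) and GLK1 and GLK2 lower (-0.49 and -0.43, adjusted p = 0.000624 and 0.000369), with 2 of the 6 higher and 2 lower in all (median 0.13), and 4 higher and 0 lower under median-of-ratios scaling.

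Of the green tissue markers 3 rose and 0 fell in cop1-6 against wild type, led by RCA and PRK, both genes of carbon fixation (0.83 and 0.53, limma adjusted p = 1.87e-05 and 0.000465). All 5 fell in the libraries labelled cor27cor28, with CA1 and GAPA at -0.96 and -0.67 (limma adjusted p = 0.000369 and 0.00143). All 6 tested root markers fell in cop1-6 (median -2.23), and 3 of them fell in the libraries labelled cor27cor28. Of the 9 seed markers only 3 could be tested, and these were higher in cop1-6 (median 1.5), with 0 called in the libraries labelled cor27cor28. Among them CRU1 and OLEO1 would not have reached the minimum for testing without the cop1-6 libraries. Their direction was thus set by that minimum and is not a result. With the deposited values the 5 abundant antenna members were called lower in cop1-6 and 0 green markers were. RBCS1A and GAPA had log2 fold changes of -0.14 and -0.15 (limma adjusted p = 0.305 and 0.267). Under median-of-ratios scaling LHCB4.2 alone of the 5 members was called lower. LHCB4.3 and LHCB7 were called higher, as were 3 of the 5 green markers. Whether organ proportions contribute was not tested.

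**Figure D4:**
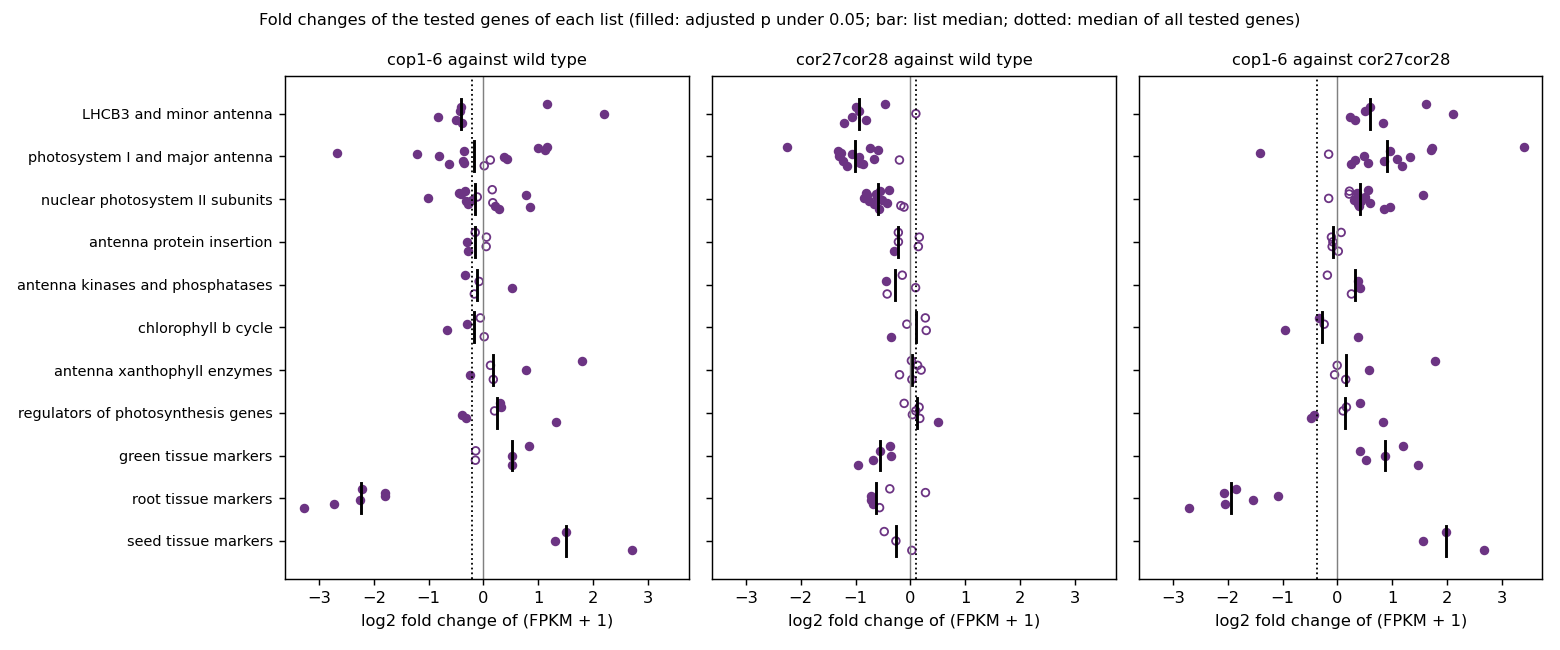
Log2 fold change of (FPKM + 1) of each tested gene of the antenna set and of 10 other lists in the 3 comparisons; filled points have a limma adjusted p under 0.05, the bar is the list's median and the dotted line the median of all tested genes. In the libraries labelled cor27cor28 the genes of antenna proteins and photosystem II subunits lie left of 0 except LHCB4.3 (0.10). The antenna insertion, kinase and phosphatase, xanthophyll and regulator lists hold genes on both sides of 0.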

How the data were processed

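The 9 libraries were grouped by the genotype in their labels. Per the submitters' processing notes the build was TAIR10 and the tools were HISAT2 2.2.1.0, TopHat, Bowtie2, Cufflinks, DESeq 1.18.0 and Trimmomatic 0.36, with no role or order. The sources used here do not say which of them made the FPKM values that the authors deposited, nor whether strand was used. FPKM is relative to the rest of a library, so a change in abundant genes shifts all others. Each library had 26997 entries, of which 13 had no gene name (0.000197% to 0.00203% of the FPKM sum) and were left out. All 26984 named genes matched the TAIR10.1 annotation by locus identifier.

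The 17075 genes that reached 1 FPKM in 3 or more libraries were fitted on log2(FPKM + 1) in R 4.3.3 by limma 3.58.1, using a variance trend and the 3 genotypes as groups, and are called at a Benjamini-Hochberg adjusted p under 0.05. Fold changes on this scale understate those of low genes. The calling step and the permutation test were tested on simulated data. The alternatives were a pseudocount of 0.1, no minimum or a minimum of 5 FPKM, median-of-ratios scaling, equal sums, a replicate block, only the 2 groups compared, and leaving out each library. Motifs were searched on both strands. Named from each list were up to 2 called genes per comparison with the lowest adjusted p, and always GLK1, GLK2, CAO, CPSRP43, STN7 and PSBS, and for each member the 2 most correlated annotated genes. The members and lists were chosen with earlier results of these data known.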

Additional observations from a re-analysis of the deposited data

How the results depend on the processing

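Of 336 alternative fold changes of the 7 genes, 320 kept their direction and their side of the threshold, 14 lost the call and 2 changed sign. Both sign changes were LHCB4.3 in libraries labelled cor27cor28 set against wild type, at -0.016 under median-of-ratios scaling and -0.013 without wild-type replicate 1, and neither was called. Leaving out 1 library put it between -0.013 and 0.248. With median-of-ratios scaling 1 member was called lower in cop1-6 against wild type, with the median of all genes at 0.01, against -0.21 with the deposited values. For all genes that scaling called 3825 higher and 3494 lower for cop1-6 against wild type, 1260 and 2125 for libraries labelled cor27cor28 set against wild type, and 3300 and 2397 between the mutants. Equal sums called 2993 higher and 4028 lower for cop1-6 against wild type and 4322 higher for the libraries labelled cor27cor28. Leaving out 1 library gave 1085 to 2809 higher and 747 to 1388 lower for libraries labelled cor27cor28 set against wild type. The counts moved most without replicate 2 (1085 higher, 749 lower) or 3 (1376 and 747) labelled cor27cor28 and without wild-type replicate 2 (1644 higher). The members called lower there were then 5 to 6, and those higher between the mutants 6 to 7. The adjusted p of LHCB6 over LHCB5 was 0.0122 to 0.0607 when 1 library was left out. Replicate numbers did not pair the samples: deviations of same-numbered libraries correlated at -0.184 to 0.125, with 1 of 9 over 0.1. With the replicate number as a block, LHCB3 over LHCB5 and LHCB4.1 over LHCB5 had an adjusted p of 0.0556 (exact permutation test), and no call of a member's fold change changed. Read depth is unknown, so how far it limits LHCB4.3 and LHCB7 was not assessed. The cause of the other changes was not tested.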
